A study of Mus musculus with 10 samples.

Results

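The genes described here are the Wnt ligands, their receptors and co-receptors, the secreted proteins that antagonize or enhance them, and the core proteins that carry the signal to the nucleus. They were chosen by name alone: every gene whose mouse symbol belongs to the Wnt, Fzd, Sfrp, Rspo or Dkk families, together with Lrp5, Lrp6, Axin1, Axin2, Lef1, Tcf7, Tcf7l1, Tcf7l2, Ctnnb1, Apc, Nkd1 and Wif1. This gave 54 of the 53379 genes with counts. RNA was sequenced by Smart-Seq2, which amplifies full-length cDNA from polyadenylated RNA, in 10 libraries of 400 sorted cells, each from a different mouse embryo at embryonic day 16 (E16). The 3 cKO-Cdkn1c-MADM-7 embryos carried the MADM-7 cassettes GT and TG, each on a chromosome with the Cdkn1c-flox allele, and Emx1 Cre/+, and the 7 control embryos carried MADM-7 GT/TG and Emx1 Cre/+ with no floxed allele. Cdkn1c encodes the cell cycle inhibitor p57KIP2 and is imprinted on mouse chromosome 7. MADM (mosaic analysis with double markers) cassettes label cells with GFP, tdT or both after recombination by Cre, and labelled cells of all colours were sorted together in both groups. Emx1-Cre is active in the progenitors of the dorsal telencephalon, so the sorted population is the Emx1 lineage of the cortex and mixes progenitors with the neurons they produce, in libraries that do not separate them.

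Wnt proteins are secreted lipid-modified ligands that bind Frizzled receptors. In the β-catenin branch, a ligand joins Frizzled to the co-receptor Lrp5 or Lrp6, the destruction complex of Axin and Apc is disabled, and β-catenin accumulates and activates target genes with TCF/LEF factors, whereas other branches act through Frizzled, Ror and Ryk receptors on cell polarity and axon growth. In the developing cortex the pathway is known for patterning from the cortical hem, a signalling centre at the medial edge, and for holding progenitors in a proliferative state.

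For Cdkn1c itself, 32, 10 and 18 reads were counted in cKO 1, 2 and 3, and 116 to 369 in the controls. Its log2 fold change was -3.66 ± 0.31 (SE, 3 cKO against 7 control libraries, edgeR quasi-likelihood test, adjusted p = 3.68e-06) and the groups did not overlap. Depth ran from 1738220 to 3362487 reads on genes (median 2847960). The libraries also fell into sets by the share of uniquely aligned reads outside genes, which was 5.47% to 8.64% in cKO 3 and controls 1, 2, 6 and 7 and 12.8% to 16.7% in cKO 1 and 2 and controls 3, 4 and 5. Markers of radial glia (1696 to 3180 CPM, reads scaled to library size, summed over 12 genes), intermediate progenitors (727 to 1388 CPM over 7) and projection neurons were present in every library. Globin reads exceeded 1000 CPM in cKO 1, control 2 and control 5.

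Of the 54 genes, 26 averaged 10 reads or more over all 10 libraries and were tested. Of the other 28, 22 had at least 1 read in some library, and Fzd5, Rspo4, Wnt8a, Wnt9b, Wnt10b and Wnt11 had none, which allows up to 3 reads per library, or between 0.892 and 1.73 CPM. At an adjusted p under 0.05 (edgeR, Benjamini-Hochberg adjustment over 11551 genes), 1 of the 26 was higher in cKO, Axin2, and 1 was lower, Wnt7b. Over all genes tested, 3.15% passed, 2.27% higher and 0.883% lower, so 2 of 26 is a small count on which no statement about the family can rest. An unadjusted p under 0.05 was reached by 6 of the 26 (23.1%), beside 16.4% of all genes tested. The groups did not overlap for 4 of the 26 (15.4%), beside 6.00% of all genes tested, with cKO above the controls for 3 (3.32% of all genes) and below them for 1 (2.68% of all genes). The median log2 fold change of the 26 genes was 0.02, beside 0.01 over all genes tested, with 15 genes fitted above and 11 below the controls.

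Level per length, in RPKM (CPM divided by the kilobases of merged exons), showed which Wnt genes the control libraries held most of. Ctnnb1, the gene of β-catenin, was highest, with a median of 67.1 (58.4 to 71.7 over 7 controls). Sfrp1, a secreted protein that binds Wnt ligands, followed with 57.2 (25.8 to 67.6), and Wnt7b with 29.4 (25.2 to 41.0). The R-spondin gene Rspo3 had 18.9 (12.9 to 31.8) and the Frizzled receptor gene Fzd3 had 12.8 (9.78 to 14.0). The ranges of each gene and the next in this order overlapped over the controls, although on these counts Wnt7b was above Rspo3 and Rspo3 above Fzd3 within each of the 7 libraries. Wnt7b was the highest of the 19 ligands, and Wnt7a came next among them, with a median of 3.67 (3.15 to 7.52), a range that did not overlap that of Wnt7b. Reads shared with an opposite-strand gene are left out of these counts. When reads of both strands were summed instead, the medians became 82.4 for Ctnnb1, whose exons overlap Ulk4, and 26.4 for Rspo3, whose exons overlap Gm48159, while Wnt7b moved only to 27.9.

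**Figure D1:**
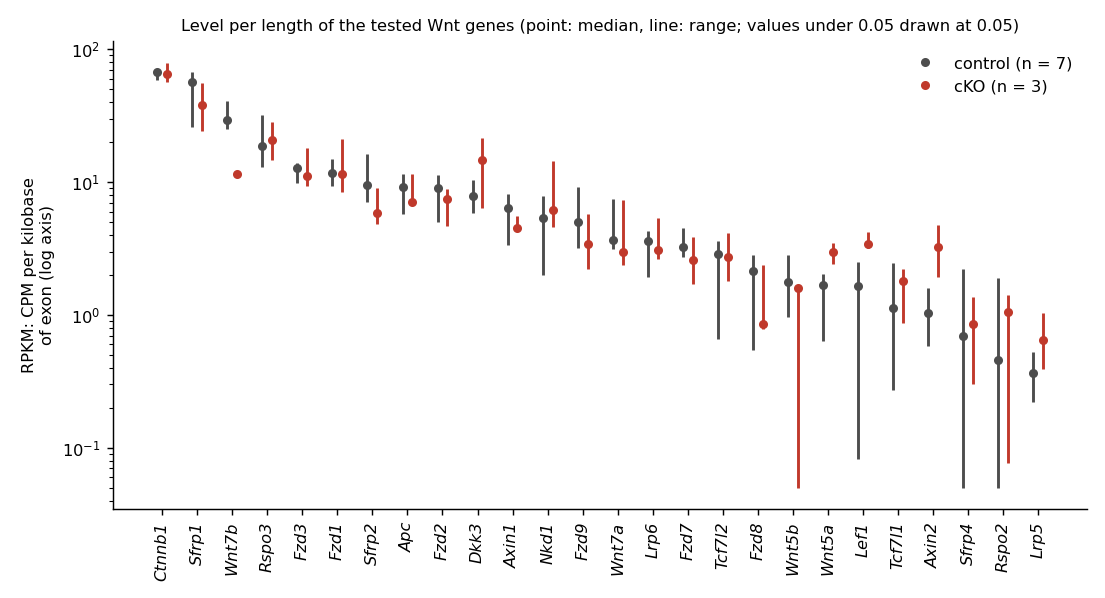
Level per length of the 26 tested Wnt genes, in RPKM (CPM per kilobase of merged exons) on a log axis, ordered by the median of the 7 control libraries. Points are medians and lines are ranges over 7 control (grey) and 3 cKO (red) libraries. Ctnnb1, Sfrp1 and Wnt7b head the controls, and the cKO lines of Wnt7b (11.2 to 12.2), Wnt5a, Lef1 and Axin2 lie apart from the control lines.

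Among the ligands, Wnt7b fell to 37.8% of its control level, whereas Wnt5a stood at 2.07 times its control level without passing the test across all genes. Wnt7b, which encodes a ligand known in forebrain development and in the growth of brain blood vessels, lies on chr15:85535437-85582473 (GRCm38, minus strand). It had 177, 144 and 129 reads in cKO 1, 2 and 3. The control libraries 1 to 7 had 554, 470, 490, 405, 212, 456 and 348 reads. All cKO libraries lay below all controls, including control 5, the library with the fewest reads. Scaled to CPM, the level was 57.1 ± 2.5 in cKO (SD, n = 3) and 151 ± 28.5 in controls (SD, n = 7), with a log2 fold change of -1.40 ± 0.19 (SE, edgeR, adjusted p = 3.26e-04). Within the libraries with few reads outside genes, cKO 3 had 54.7 CPM and the 4 controls averaged 164. Within the libraries with many, cKO 1 and 2 averaged 58.2 CPM and the 3 controls 133. Wnt7b was lower in cKO in both sets, and it kept its call in each of the 23 alternative settings run, where its log2 fold change ran from -1.57 to -1.30 and its adjusted p did not exceed 0.00540.

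Markers of projection neurons moved with Wnt7b. Of 12 such markers, 4 were called lower in cKO and none higher, with Neurod6 at a log2 fold change of -0.98 and Neurod2 at -0.75. Their summed level was 2739 to 2887 CPM in the cKO libraries and 4123 to 5344 CPM in the controls. Wnt7b amounted to 2.00% to 2.07% of that sum in the cKO libraries and to 2.51% to 4.39% in the controls, ranges that did not overlap, so Wnt7b was lower in cKO also in proportion to these markers. Their part in the Wnt7b result was not tested, and in bulk libraries fewer cells of a type and less RNA per cell cannot be told apart.

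Wnt7b made up 68.2% to 85.9% of all ligand reads per length in the controls and 42.7% to 55.8% in the cKO libraries. The summed level of the 19 ligands was 186 ± 25.2 CPM in controls (SD, n = 7) and 108 ± 6.88 CPM in cKO (SD, n = 3). Without Wnt7b the sum ran the other way, from 24.7 to 45.4 CPM in controls and from 44.5 to 61.1 CPM in cKO, with cKO 1 inside the range of the controls.

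Wnt5a encodes the best known ligand of the branches that do not use β-catenin. It had 56, 69 and 55 reads in cKO 1, 2 and 3, and 17, 38, 17, 49, 24, 29 and 37 in controls 1 to 7. Every cKO library was above every control. The level was 23.1 ± 4.15 CPM in cKO (SD, n = 3) and 11.2 ± 4.15 in controls (SD, n = 7), with a log2 fold change of 1.07 ± 0.32 (SE, edgeR, adjusted p = 0.0843). The remaining tested ligands were Wnt7a, at a log2 fold change of -0.06 ± 0.39 (SE), and Wnt5b, at -0.74 ± 0.58. The direction of Wnt7a differed between the sets by reads outside genes, at 23.3 CPM in cKO 3 beside 11.8 on average in its controls, and 8.46 beside 15.4 in the other set. The Wnt5b libraries were uneven, with no read in cKO 2 and 7 to 21 in the controls.

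Wnt4, which encodes a ligand with roles in kidney and gonad development, was under the read minimum but separated the groups. In cKO 1, 2 and 3 it had 11, 20 and 12 reads. Controls 1 to 7 had 1, 0, 2, 0, 2, 0 and 0. All 3 cKO libraries were above all 7 controls, as for 3.44% of all genes with a mean of 1 to 10 reads. When no minimum was applied, Wnt4 had a log2 fold change of 4.16 ± 0.78 (SE, edgeR, adjusted p = 1.24e-05, where 3.62% of 26537 genes were called, 2.64% higher), a size that rests on 5 reads over the 7 controls. It was also called under edgeR's own rule for low counts, as were 3.25% of all genes, but it met that rule only through the cKO libraries, so the call adds nothing to its reads. The other 14 untested ligands had at most 14 reads in any library. Wnt8b, a ligand of the hem and hippocampal field, had 0 to 7 reads in cKO and 0 to 14 in controls, and Wnt3 had 1 to 4 and 1 to 11. Wnt10a had 3 to 9 reads in cKO and 0 to 6 in controls, Wnt3a 0 to 4 and 0 to 8, and Wnt9a 0 to 4 and 0 to 3. Wnt1, Wnt2, Wnt2b, Wnt6 and Wnt16 had at most 3 reads in any library. Wnt2b and Wnt3a, known ligands of the cortical hem, thus had at most 8 reads in any library.

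**Figure D2:**
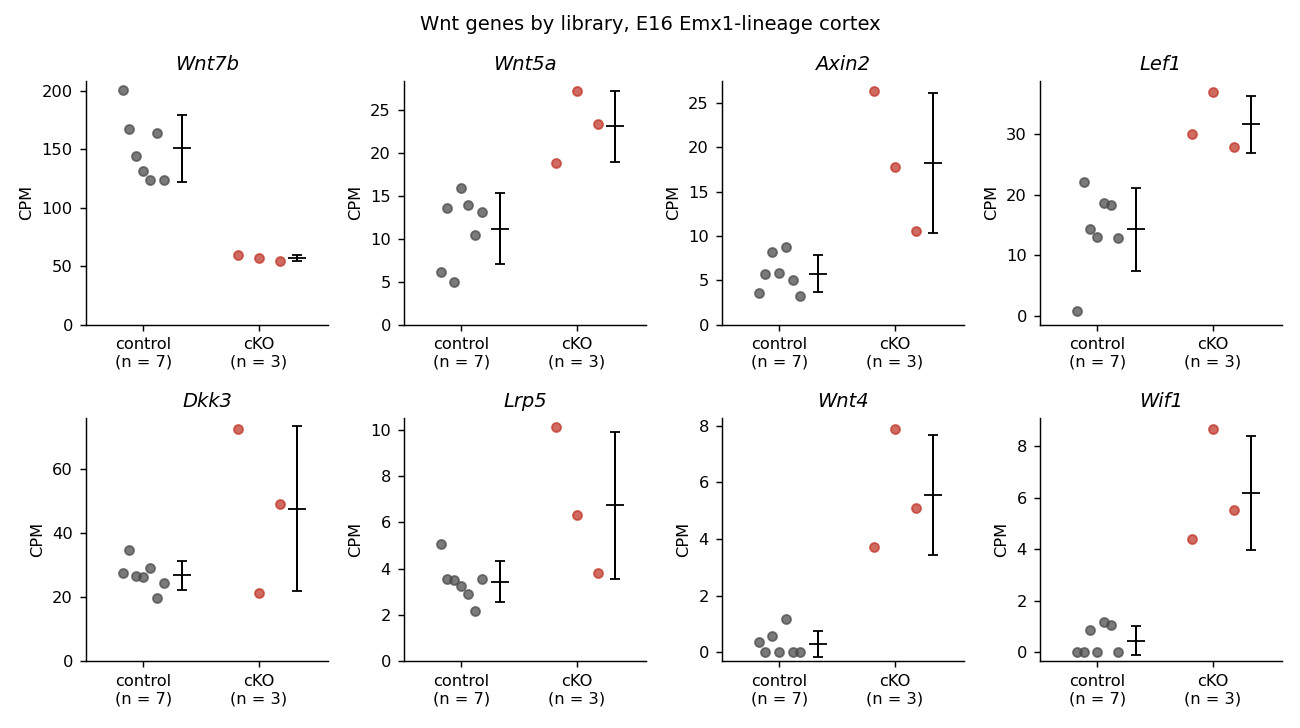
CPM (vertical axes, from 0) of 8 Wnt genes in each library: points are the 7 control (grey) and 3 cKO (red) libraries, and bars are mean ± SD. The groups do not overlap for Wnt7b, Wnt5a, Axin2, Lef1, Wnt4 and Wif1, whereas cKO 2 lies among the controls for Dkk3 and cKO 3 for Lrp5.

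None of the 6 tested Frizzled receptor genes was called, with 2 fitted above and 4 below the controls. Fzd3, known for its part in axon guidance, had 419, 586 and 280 reads in cKO 1, 2 and 3 and 301 to 609 in controls, with a median of 444. The libraries overlapped, with a log2 fold change of 0.03 ± 0.19 (SE) and a 95% interval from -0.33 to 0.39. Fzd1 was at 0.19 ± 0.25 (SE), Fzd2 at -0.30 ± 0.27 and Fzd7 at -0.37 ± 0.31. Their intervals lay inside -1 to 1 on the log2 scale, so a change of 2-fold or more in either direction was outside them. The value of Fzd7 was -0.02 without the libraries rich in globin reads. Fzd8 was at -0.57 ± 0.47 (SE) and Fzd9, whose gene is expressed in hippocampal progenitors, at -0.62 ± 0.40. With each library left out, Fzd8 ran from -1.27 to -0.26 and Fzd9 from -1.08 to -0.37. In the libraries with few reads outside genes, Fzd9 was at 5.09 CPM in cKO 3 and 15.8 on average in the controls, and in those with many at 10.5 and 10.9. The intervals of Fzd8 and Fzd9 reached below -1, so a 2-fold lower level was not resolved at this depth. The untested receptors Fzd6 and Fzd10 had at most 15 reads in any library, and Fzd4 had 0, 1 and 0 reads in cKO and 0, 0, 9, 13, 7, 5 and 3 in controls 1 to 7.

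The LRP co-receptors join Frizzled in the β-catenin branch. Lrp6 was at a log2 fold change of 0.17 ± 0.26 (SE), with 85 to 186 reads in cKO and 74 to 182 in controls. Lrp5 had 30, 16 and 9 reads in cKO 1, 2 and 3 and 5 to 14 in controls, with a median of 10. Only cKO 1 and 2 stood above the controls. The level of Lrp5 was 6.75 ± 3.17 CPM in cKO (SD, n = 3) and 3.44 ± 0.88 in controls (SD, n = 7), with a log2 fold change of 1.0 ± 0.40 (SE, edgeR, adjusted p = 0.216). In the libraries with few reads outside genes, cKO 3 had 3.82 CPM and the controls averaged 3.59, and in those with many the averages were 8.21 and 3.23, so the Lrp5 difference appeared in the second set alone. The test of a difference between the sets was not run. Without cKO 1 the log2 fold change of Lrp5 was 0.55, and without the libraries rich in globin reads 0.53.

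R-spondins enhance Wnt signalling by removing the ubiquitin ligases Rnf43 and Znrf3 from the cell surface. Rspo3 had 189, 115 and 208 reads in cKO and 110 to 275 in controls, with a median of 169. The groups overlapped throughout, at 65.8 ± 21.5 CPM in cKO (SD, n = 3) and 65.9 ± 19.2 in controls (SD, n = 7), with a 95% interval of the log2 fold change from -0.49 to 0.49. Rspo2 varied from 0 to 27 reads over the controls and was at a log2 fold change of 0.34 ± 0.73 (SE). Rspo1 had 0 to 6 reads in cKO and 0 to 17 in controls.

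The Sfrp proteins and Wif1 bind Wnt ligands outside the cell. Sfrp1 had 315, 620 and 389 reads in cKO and 301 to 965 in controls, with a median of 695. The libraries overlapped, at a log2 fold change of -0.41 ± 0.27 (SE), which ran from -0.77 to -0.15 with each library left out. Sfrp2 was at -0.62 ± 0.33 (SE) and Sfrp4 at 0.01 ± 0.70, and neither passed. The exons of Sfrp2 also overlap an opposite-strand gene, and its reads were 1.48 times as many with both strands summed. Sfrp5 had at most 2 reads in any library. Wif1, in contrast, had 13, 22 and 13 reads in cKO 1, 2 and 3, although it too was under the read minimum. Controls 1 to 7 had 0, 0, 3, 0, 2, 3 and 0 reads. With no minimum its log2 fold change was 3.72 ± 0.70 (SE, edgeR, adjusted p = 1.37e-05), on 8 reads over the 7 controls. Wnt4 and Wif1 were the only 2 of the 22 untested genes with a read that had all cKO libraries above all controls, beside 1.66% of all genes under the minimum with a read. Both were among the 15 with a mean of 1 to 10 reads (13.3%, beside 3.44% of all such genes), and none had all cKO libraries below.

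Dkk1, Dkk2 and Dkk4 encode inhibitors that bind the LRP co-receptors, and they had at most 6 reads in any library. Dkkl1, a related gene, had 1 to 5 reads in cKO and 0 to 13 in controls. Dkk3, a divergent family member, had 215, 54 and 116 reads in cKO and 50 to 97 in controls, with a median of 76. The values of cKO 1 and 3 were above all controls and that of cKO 2 was among them. Dkk3 was at 47.7 ± 25.7 CPM in cKO (SD, n = 3) and 26.9 ± 4.50 in controls (SD, n = 7), with a log2 fold change of 0.85 ± 0.28 (SE, edgeR, adjusted p = 0.127), which became 1.18 with adjusted p = 0.00753 without cKO 2, 0.38 with adjusted p = 0.573 without cKO 1, and 0.48 with adjusted p = 0.517 without the libraries rich in globin reads. Nkd1, which encodes a feedback inhibitor that binds Dishevelled, was at 0.74 ± 0.38 (SE), with 194, 71 and 49 reads in cKO 1, 2 and 3 and 31 to 100 in controls, so its highest value was that of cKO 1. Without cKO 1 its log2 fold change was 0.07, and without the libraries rich in globin reads 0.21. In the libraries with few reads outside genes it was at 20.8 CPM in cKO 3 and 28.5 on average in the controls, and in those with many at 46.7 and 17.2, so the Nkd1 difference turned between the sets and rested on cKO 1.

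**Figure D3:**
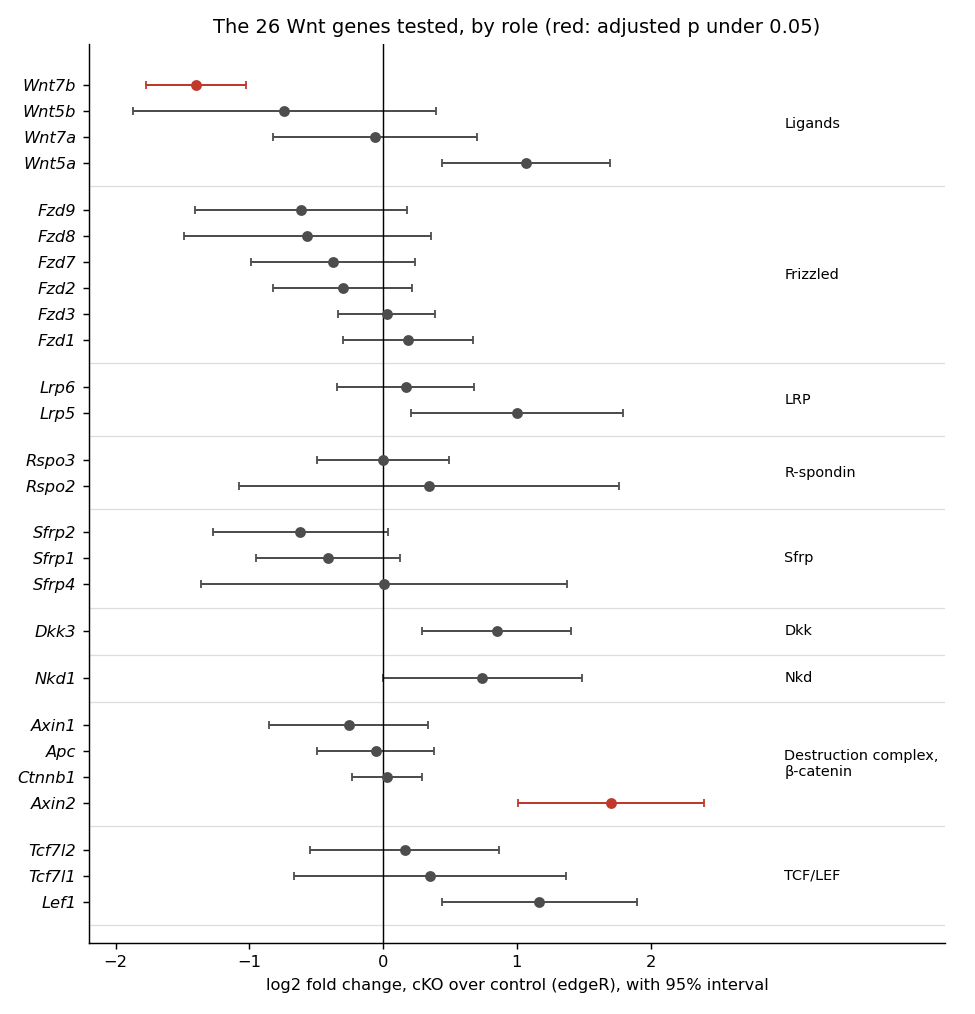
Log2 fold change (horizontal axis, cKO over control) of the 26 tested Wnt genes, grouped by role, with bars of 1.96 SE from the edgeR fit. The 2 genes in red, Wnt7b at -1.40 and Axin2 at 1.71, had an adjusted p under 0.05, and the intervals of Wnt5a, Lef1, Dkk3 and Lrp5 also leave out 0.

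Axin2 was the called gene with a higher level in cKO. Its product is a scaffold of the destruction complex, and the gene is a textbook target of β-catenin signalling that limits the pathway in a negative feedback loop. It lies on chr11:108920349-108950783 (GRCm38, plus strand). It had 78, 45 and 25 reads in cKO 1, 2 and 3, and 10, 16, 28, 18, 15, 14 and 9 in controls 1 to 7. Scaled to depth, all 3 cKO libraries (26.3, 17.7 and 10.6 CPM) were above all 7 controls (3.20 to 8.73 CPM). The log2 fold change was 1.71 ± 0.36 (SE, edgeR, adjusted p = 0.0124). The cKO libraries spread widely, and the call rested on cKO 1: without it the log2 fold change was 1.32 with adjusted p = 0.0949, and without the libraries rich in globin reads, cKO 1 among them, it was 1.41 with adjusted p = 0.131. A replicate block, which kept cKO 1, also lost the call (edgeR, adjusted p = 0.138). The difference had the same direction in both sets by reads outside genes, with 10.6 CPM in cKO 3 beside an average of 4.39 in its controls, and 22.0 beside 7.60 in the other set.

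The remaining genes of this group were close to the controls. Ctnnb1 had 877, 1046 and 791 reads in cKO and 639 to 1108 in controls, with a median of 973. Its log2 fold change was 0.03 ± 0.13 (SE), with a 95% interval from -0.23 to 0.29, the narrowest among the 26 genes. Axin1, the constitutive paralogue of Axin2, was at -0.26 ± 0.30 (SE), and Apc, another scaffold, at -0.06 ± 0.22. Axin2 thus differed where Axin1, Apc and Ctnnb1 did not pass, a contrast between genes that was not itself tested.

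Among the TCF/LEF factors, which bind DNA and recruit β-catenin, Lef1 had 89, 94 and 66 reads in cKO 1, 2 and 3, and 2, 62, 49, 40, 32, 51 and 36 in controls 1 to 7. All cKO libraries were above all controls, and control 1 stood far below the others. The level was 31.7 ± 4.74 CPM in cKO (SD, n = 3) and 14.3 ± 6.89 in controls (SD, n = 7), with a log2 fold change of 1.17 ± 0.37 (SE, edgeR, adjusted p = 0.106). Part of its exons overlaps an opposite-strand gene, so its level is uncertain, and its reads were 1.33 times as many when both strands were summed. Tcf7l1 was at 0.35 ± 0.52 (SE) and Tcf7l2 at 0.16 ± 0.36. Tcf7, just under the minimum, had 5 to 11 reads in cKO and 3 to 13 in controls.

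Since Axin2 and Lef1 are known targets of the factors of this last group, the letters that TCF/LEF factors bind were searched in the RefSeq promoter windows (GRCm38.p6, 250 bases before to 50 after each start site). The motif was CTTTG followed by 2 bases that are each A or T, on both strands and with overlaps allowed. Of the 54 genes, 36 had a window, and 7 of them (19.4%) held a match: Dkk1, Fzd7, Lef1, Tcf7l2, Wnt3, Wnt5b and Wnt11. Of all genes with a window, 18.9% held a match. Fzd2, Fzd3, Fzd6, Fzd8, Sfrp1, Sfrp4, Rspo2, Rspo3, Dkk3, Dkk4, Lrp5, Lrp6, Axin1, Apc, Wnt5a, Wnt7b, Wnt8a and Wnt10a had no window. The window of Axin2, the one before the called gene, had no match, and its 250 bases before the start site (chr11:108920099-108920348, plus strand, 5′ to 3′) are shown whole. Lef1 has several start sites, and the match was in the window of the most downstream one (chr3:131156044-131156293, plus strand), where capitals mark the motif, which lies on the opposite strand.
Axin2: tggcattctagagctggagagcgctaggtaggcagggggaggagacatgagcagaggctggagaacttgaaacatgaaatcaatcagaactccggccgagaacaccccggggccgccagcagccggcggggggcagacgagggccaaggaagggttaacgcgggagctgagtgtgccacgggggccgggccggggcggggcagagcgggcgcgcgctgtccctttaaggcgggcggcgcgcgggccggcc
Lef1: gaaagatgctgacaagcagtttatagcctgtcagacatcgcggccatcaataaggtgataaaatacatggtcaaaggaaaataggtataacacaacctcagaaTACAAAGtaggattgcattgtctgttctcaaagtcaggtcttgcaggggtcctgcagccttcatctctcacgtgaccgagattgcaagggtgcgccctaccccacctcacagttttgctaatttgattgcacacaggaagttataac

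Beyond these genes, the rest of the pathway gave no call. Of 74 further genes of the pathway (planar polarity receptors, ligand processing, cytoplasmic transducers, nuclear partners, receptor turnover), 59 were tested and none passed, beside 3.15% of all genes, with a median log2 fold change of -0.12. An adjusted p under 0.1 was reached by Prickle1, a planar polarity gene, at -1.17 ± 0.32 (SE, edgeR, adjusted p = 0.0573), and by Gpc4, a cell surface proteoglycan gene, at -0.82 ± 0.23 (adjusted p = 0.0666). Fbxw11, which encodes an F-box protein that marks β-catenin for degradation, was at -0.59 ± 0.18 (adjusted p = 0.0898), and Znrf3, which encodes a ubiquitin ligase that removes Frizzled receptors, at 0.76 ± 0.24 (adjusted p = 0.0954). Of the 59 genes, 4 had all cKO libraries below all controls and none had them all above, beside 2.68% and 3.32% of all genes tested.

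Of 16 other textbook targets of β-catenin signalling, 13 were tested, of which 3 were called higher and 1 lower, beside 2.27% and 0.883% of all genes tested. Their median log2 fold change was 0.62, beside 0.01 over all genes tested. Ccnd2, which encodes cyclin D2, was at 0.93 ± 0.18 (SE, edgeR, adjusted p = 0.00575), with 649 ± 104 CPM in cKO (SD, n = 3) and 340 ± 79.8 in controls (SD, n = 7). Tnfrsf19, a receptor of the TNF family, was at 0.96 ± 0.24 (adjusted p = 0.0325). Sp5, a transcription factor gene, was at 2.67 ± 0.65 (adjusted p = 0.0233), with 51 reads in the highest cKO library, 10 in the lowest and 0 to 13 in the controls. Id2, an inhibitor of basic helix-loop-helix factors, was the one lower in cKO, at -0.66 ± 0.13 (adjusted p = 0.00721). Many of these targets answer to other pathways as well. The calls of Sp5 and Tnfrsf19 were lost in several alternative settings, that of Id2 was lost in 2 (with the replicate block and without the libraries rich in globin reads), and Ccnd2 kept its call in all 23.

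Markers of another cell type moved with the genes that were higher in cKO. All 9 tested markers of Cajal-Retzius cells, the reelin-producing neurons of the marginal zone, were called higher in cKO, and their summed level over 11 genes was 693 to 927 CPM in cKO and 26.9 to 246 CPM in controls. Reln was at a log2 fold change of 2.71, Lhx1 at 3.68 and Ndnf at 3.19. Within the controls, the sum was lowest in control 1 and highest in control 2, as was Lef1 (0.726 and 22.1 CPM), and Axin2 was lowest in control 7 and highest in control 5 (3.20 and 8.73 CPM). Within cKO, the sum was lowest in cKO 2 and highest in cKO 3. There Lef1 ran the other way, at 37.0 CPM in cKO 2 and 28.0 CPM in cKO 3, and Axin2 was lowest in cKO 3 (10.6 CPM). None of 11 tested radial glial markers and none of 7 intermediate progenitor markers was called. The 7 cortical hem markers that are not Wnt genes summed to 13.0 to 14.2 CPM in cKO, to 15.0 in control 2 and to 1.45 to 5.82 in the other 6 controls, with Gdf7 at or near 0. Of 8 choroid plexus markers only Ttr had enough reads to test, at a log2 fold change of 2.52 ± 0.73 (SE, edgeR, adjusted p = 0.0753), and Kcne2 and Kl had none. Their sum was 9.06 to 60.2 CPM in cKO (median 36.8) and 0 to 23.2 in controls (median 2.49), and the sum over meningeal and pericyte markers was 30.0 to 51.6 CPM in cKO and 13.6 to 34.2 in controls. Of 9 tested markers of GABAergic interneurons, Dlx2 was called higher, at 1.63 ± 0.41 (SE, edgeR, adjusted p = 0.0354), and Npy lower, at -3.64 ± 0.83 (adjusted p = 0.0205), with a median log2 fold change of 1.08 and sums of 58.7 to 185 CPM in cKO and 73.3 to 272 in controls. None of 5 tested endothelial and blood markers was called, and the microglial list summed to 9.45 to 50.9 CPM in cKO and 6.81 to 16.8 in controls. The part of these markers in the levels of Axin2, Lef1, Wnt5a, Wnt4 and Wif1 was not tested.

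**Figure D4:**
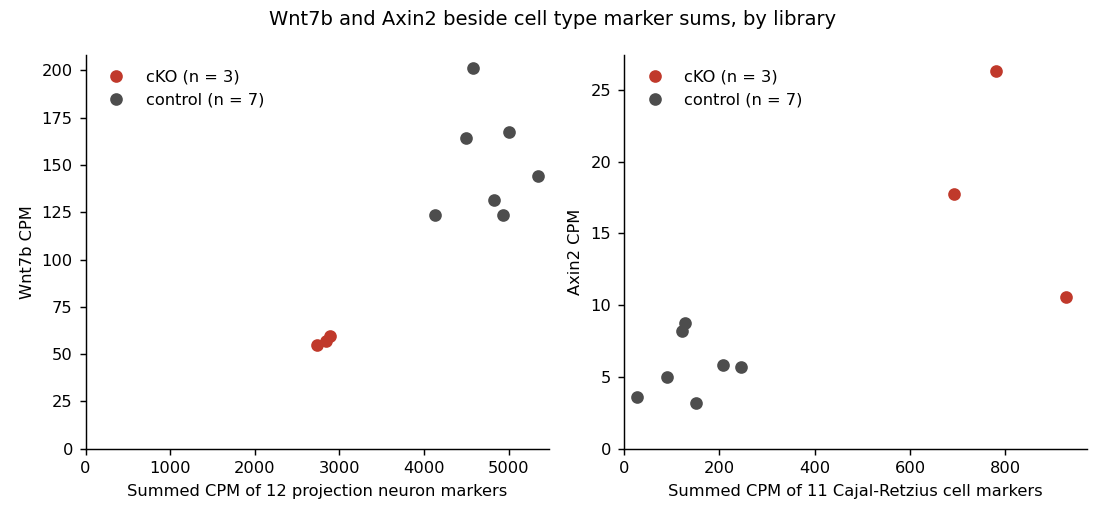
Left: CPM of Wnt7b (vertical axis) against the summed CPM of 12 projection neuron markers (horizontal axis). Right: CPM of Axin2 against the summed CPM of 11 Cajal-Retzius cell markers. Each point is a library (7 control in grey, 3 cKO in red), and the groups lie apart on both axes of both panels, so genotype and the marker sums cannot be told apart across them.

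The genes whose log2 CPM followed that of Wnt7b most closely over the 10 libraries were Mpped1 (Pearson's r = 0.974), Snhg18 (r = 0.958) and Pde1b (r = 0.957). Those closest to Axin2 were March1 (r = 0.987), Rims3 (r = 0.957) and Pcdh11x (r = 0.936). Wnt7b and Axin2 themselves had r = -0.823. These values describe 10 points that share depth and fall into the 2 genotypes, so any genes that differ between the groups correlate over them, and they carry no test.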

How the data were processed

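The authors merged technical replicates with samtools, converted the files with bedtools 2.26.0, aligned reads to GRCm38 with STAR 2.5.0c keeping unique alignments, and deposited raw read counts per GENCODE gene, with no normalization. The libraries carry no strand information (50.3% to 50.5% of stranded counts were sense), so the count that ignores strand was used, and reads on overlapping genes are left out of it. No molecular identifiers were used, so limits from counts cover counting error only. Symbols and positions came from GENCODE M21, where 50604 of 53379 identifiers matched with their version, 2670 without it and 105 not at all.

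Genes averaging 10 reads or more (the filter of the study) were tested with edgeR 4.0.16 (TMM, quasi-likelihood test, genotype alone) in R 4.3.3, with Benjamini-Hochberg adjustment over all 11551 genes. CPM use TMM factors, and 95% intervals are 1.96 SE. That multiplier comes from the normal distribution, so these intervals are somewhat narrower than the test implies. On simulated data of this design with 11392 genes, 46 of 99 genes changed 2-fold and 87 of 95 changed 4-fold were called, with 12 false calls. The test settings, normalization, filter, count column, depth, covariates and libraries were varied, with DESeq2 1.42.0 and limma-voom (limma 3.58.1) among the alternatives. A fit without libraries rich in globin reads, and one with a block for reads outside genes, were chosen after seeing the data.

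The genes and all lists were chosen with earlier results of these data known. Every member was accounted for. Those with an unadjusted p under 0.05, with groups that did not overlap, or among the 5 highest per length were given by library in cKO, and for the controls by library or as range and median. Outside the set, Cdkn1c, pathway and target genes of smallest p, up to 3 genes per marker list and the 3 genes most correlated with each called gene were named. Ranges of other listed genes were given after their values were seen. Some genes that the rule would name are not reported here, though counts and sums include them. Figures were drawn with matplotlib 3.10.9.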

Additional observations from a re-analysis of the deposited data

Results flagged for a closer look

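The level of Wnt7a in control 3 stood apart from the other controls, at 23.8 CPM (81 reads) where the other 6 ran from 9.99 to 14.0 CPM. The gap to its nearest neighbour was 0.709 of the whole range, above the limit of 0.568 for 7 samples, and it was the only such case among 28 genes examined. Chance gives such a case in about 1 of 20 genes, so 1 among 28 is no more than chance gives. Without control 3 the log2 fold change of Wnt7a was 0.16, beside -0.06 with it, and neither passed the test.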

How the results depend on the processing

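Wnt7b was the 1 gene of the set called lower in every setting. The count called higher, 1, became 5 with no filter (Axin2, Lef1, Wif1, Wnt4, Wnt5a), 3 with filterByExpr (Axin2, and Wif1 and Wnt4, which entered through their cKO reads alone), 2 at a mean of at least 5 reads (Axin2, and Wif1, which had 48 of its 56 reads in cKO), 0 with a replicate block, 0 without the libraries rich in globin reads, and 0 to 2 with each library left out (0 without cKO 1, 2 without cKO 2, where Dkk3 joined). All other alternatives gave 1. The calls over all genes, 364, became 961 with no filter and 213 with the replicate block. The replicate numbers do not pair the libraries (correlations of deviations 0.04, -0.10 and -0.21, with only cKO 1 correlating best with its own number), and with the block Axin2 was at 1.57 with adjusted p = 0.138. The cause of these moves was not tested.

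In these settings directions turned for genes that were not called. Fzd3 was at -0.0202 with limma-voom, -0.0882 with the replicate block, -0.0383 with the share outside genes as covariate and -0.0708 with it as a block, and Sfrp4, in the same settings but limma-voom, at -0.50, -0.15 and -0.14. With no filter, filterByExpr and a mean of at least 5 reads, Rspo3 was at -0.0218, -0.0072 and -0.0128 and Sfrp4 at -0.0188, -0.0014 and -0.0073. Rspo3 was at -0.0661 and Wnt7a at 0.0065 when thinned to equal depth, Rspo2 at -0.30 with the block, and Wnt7a at 0.0471 and Apc at 0.13 without the globin-rich libraries. With each library left out, Fzd1 ran from -0.29 to 0.46, Fzd3 from -0.31 to 0.21, Lrp6 from -0.21 to 0.35, Rspo3 from -0.26 to 0.19, Sfrp4 from -0.22 to 0.36, Tcf7l2 from -0.21 to 0.43, Apc from -0.36 to 0.0733, Ctnnb1 from -0.12 to 0.13 and Wnt7a from -0.68 to 0.20. By longest transcript, Ctnnb1 was at 96.1 and Wnt7b at 42.4 RPKM. With 3 cKO libraries, 12 of the 24 genes not called had intervals reaching a 2-fold change.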

Other observations

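Ror2, which encodes a receptor of Wnt5a, was under the read minimum and was named after its values were seen. Its level was 5.40, 4.33 and 3.39 CPM in cKO 1, 2 and 3 and 0 to 2.5 CPM in the 7 controls, so that the groups did not overlap, as for 3.44% of genes with a mean of 1 to 10 reads. Notum, a secreted feedback inhibitor that removes the lipid from Wnt ligands, had 0 to 2 reads in the controls and 18 in the highest cKO library, with 0 in the lowest.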
